A study of Mus musculus with 16 samples.

Results

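The transcription factor p53, encoded by Trp53, and 9 genes known as its direct targets were followed in cultured mouse macrophages. The 10 genes (Trp53, Mdm2, Ccng1, Trp53inp1, Sesn1, Sesn2, Zmat3, Phlda3, Fas and Btg2) were chosen by symbol from the 35275 genes of a read count table, and all 10 passed the filter on low counts that left 13080 genes for testing. The table held 16 RNA-seq libraries in 4 groups of 4. The comparisons ask how macrophages respond to transforming growth factor β1 (TGF-β1) and whether loss of Smad7, an inhibitory Smad protein that restrains signalling from TGF-β receptors, changes that response.

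All mice were C57BL/6 and homozygous for floxed Smad7. In the KO groups they also carried CAGGCre-ER, a tamoxifen-dependent Cre recombinase under the broadly active CAGG promoter, so that deletion was induced in the whole animal and not in macrophages alone. The fl/fl groups had no Cre, and both genotypes received tamoxifen at 20 mg/kg for 5 days. Marrow was taken 2 weeks later, and the labels give ages of 1 month at injection and of 1 to 2 months for the donors of the cells. Marrow cells spent 24 h in 12 ng/ml CSF-1, the macrophage growth factor, and adherent macrophages then formed over 48 h in 120 ng/ml, both with 15% serum. After about 12 h without serum they received TGF-β1 at 10 ng/ml for 4 h or were left untreated. The groups are called KO with TGF-β1, KO untreated, fl/fl with TGF-β1 and fl/fl untreated.

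Cells keep p53 scarce by degrading it, and DNA damage or other stress stabilises it. It then binds DNA at paired 10-base elements and switches on genes that halt the cell cycle, repair DNA, restrain growth signalling or trigger apoptosis. Mdm2, the ubiquitin ligase that marks p53 for degradation, is itself a target, which closes a negative feedback loop. In the myeloid lineage p53 is known to limit the growth of progenitors, and p53 and the Smad proteins activated by TGF-β are known to act together at some promoters.

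Library totals ran from 16865591 to 23741079 counts. Smad7 was at 10.3 to 19.7 CPM (counts scaled to the size of the library) in KO with TGF-β1 and at 5.87 CPM in KO untreated replicate 1 and 1.28 to 2.00 CPM in the other 3 KO untreated libraries, against 37.3 to 58.3 CPM in fl/fl with TGF-β1 and 3.89 to 6.03 CPM in fl/fl untreated libraries. Among the untreated KO libraries, replicate 1 resembled treated ones. In it Pmepa1, a TGF-β target, had 319.9 CPM, against 292 to 343 CPM in KO with TGF-β1 and 1.70 to 2.73 CPM in the other 3 KO untreated libraries. For the 10 members, fold changes that involve it are given with and without it. Some of those of other genes are given only without it. The library fl/fl with TGF-β1 replicate 4 also stood apart, with 2300 tested genes more than 2-fold from the median of the other 3 libraries of its group. That number was 1446 and 1415 in KO untreated replicates 1 and 2 and 451 to 885 in the other libraries. Its mitochondrial genes took 0.575% of counts, against 1.20% to 2.71% elsewhere. The summed level of 8 macrophage markers was 17865 to 20236 CPM in KO with TGF-β1, 17333 to 25175 CPM in KO untreated, 17005 to 21017 CPM in fl/fl with TGF-β1 and 21141 to 23257 CPM in fl/fl untreated libraries. The sum of 8 neutrophil markers was at most 11.0 CPM and that of 8 stromal markers at most 2.55 CPM in any library, with Ly6g and Retnlg at 0. The sum of 8 proliferation genes ran from 773 to 1069 CPM over the 16 libraries.

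Ranked by FPKM, which divides by gene length and so allows levels to be set between genes, the sestrin Sesn1 and cyclin G1 (Ccng1) led in fl/fl untreated macrophages at 65.4 ± 5.55 and 64.0 ± 2.90 FPKM (SD, n = 4), with overlapping ranges. Mdm2 followed at 45.6 ± 2.36 FPKM and Trp53inp1 at 30.5 ± 1.34 FPKM, each apart from its neighbours. Trp53 itself came next at 23.1 ± 1.83 FPKM, and Sesn2 after it at 16.3 ± 1.21 FPKM. The lowest 4 were Zmat3 (12.1 ± 1.35 FPKM), Fas (10.3 ± 1.95 FPKM), Btg2 (9.91 ± 0.61 FPKM) and Phlda3 (9.07 ± 2.24 FPKM), each overlapping its neighbour. With TGF-β1 the order had Mdm2 first, at 63.5 ± 3.48 FPKM in KO and 58.2 ± 4.78 FPKM in fl/fl macrophages, above every Ccng1 value of the same group. Fas was last in both treated groups, at 4.06 ± 0.51 FPKM in KO and 3.77 ± 0.14 FPKM in fl/fl macrophages. In KO untreated macrophages Sesn1, Ccng1 and Mdm2 overlapped at the top, at 55.1 ± 20.7, 54.0 ± 10.2 and 52.0 ± 7.83 FPKM (SD, n = 4). Leaving out replicate 1, these were 63.5 ± 14.8, 58.0 ± 7.77 and 48.4 ± 3.47 FPKM (SD, n = 3), still with overlapping ranges.

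**Figure D1:**
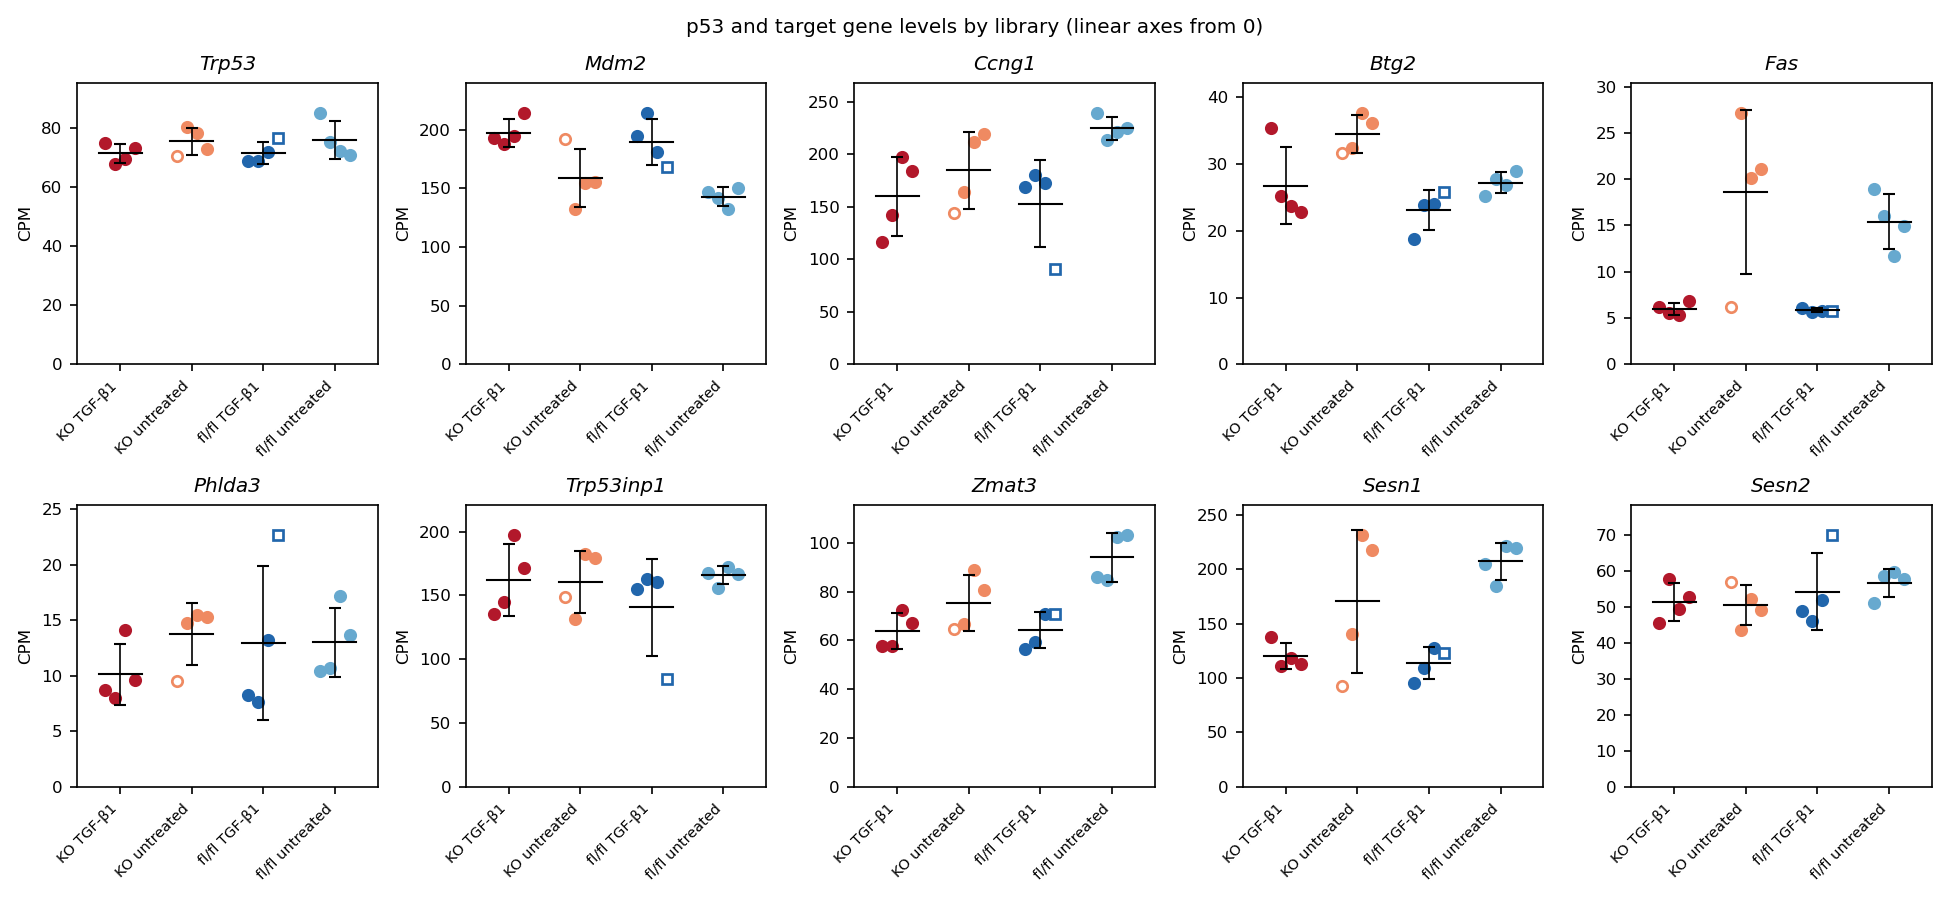
CPM of the 10 p53 genes in each of the 16 libraries, 1 panel per gene, with a line at the group mean and bars of 1 SD (n = 4). The open circle is KO untreated replicate 1 and the open square fl/fl with TGF-β1 replicate 4; in the Fas panel all 8 TGF-β1 libraries and the open circle lie between 5.36 and 6.85 CPM, and the other 7 lie at 11.7 CPM or more.

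Start-site windows were read for Mdm2, Sesn1 and Fas, the 3 members whose treated and untreated ranges did not overlap either in fl/fl macrophages or, without KO untreated replicate 1, in KO macrophages, and which passed the test in both. The windows are from RefSeq on GRCm38.p6 and run 5′ to 3′ on the gene's strand from 250 bases before to 50 bases after an annotated start. Capitals mark matches to the 10-base p53 half-site consensus, which reads the same on both strands. The Mdm2 window is chr10:117710709-117711008 on the minus strand, the Sesn1 window, at the downstream of 2 annotated starts, is chr10:41887189-41887488 on the plus strand, and the Fas window is chr19:34290409-34290708 on the plus strand.
Mdm2: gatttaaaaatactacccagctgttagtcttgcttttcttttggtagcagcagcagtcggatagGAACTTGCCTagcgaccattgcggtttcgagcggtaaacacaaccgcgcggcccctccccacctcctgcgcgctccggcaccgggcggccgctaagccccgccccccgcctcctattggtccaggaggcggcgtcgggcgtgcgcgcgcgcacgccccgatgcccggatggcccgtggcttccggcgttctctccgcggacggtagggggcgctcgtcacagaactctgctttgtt
Sesn1: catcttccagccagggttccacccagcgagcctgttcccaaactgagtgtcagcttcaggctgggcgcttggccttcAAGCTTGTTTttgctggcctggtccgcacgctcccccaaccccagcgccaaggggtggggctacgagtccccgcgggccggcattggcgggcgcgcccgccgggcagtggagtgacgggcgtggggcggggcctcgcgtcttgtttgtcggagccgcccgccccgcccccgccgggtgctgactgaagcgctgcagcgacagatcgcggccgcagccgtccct
Fas: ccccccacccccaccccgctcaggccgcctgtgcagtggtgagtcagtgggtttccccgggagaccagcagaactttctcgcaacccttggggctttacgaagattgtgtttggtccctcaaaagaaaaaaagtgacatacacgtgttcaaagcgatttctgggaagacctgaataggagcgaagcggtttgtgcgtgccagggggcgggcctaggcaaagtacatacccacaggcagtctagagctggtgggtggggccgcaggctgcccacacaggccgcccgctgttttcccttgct
The half-site begins 186 bases before the start in the Mdm2 window and 173 bases before it in that of Sesn1, and the Fas window holds no match. The other Sesn1 window, at the upstream start (chr10:41810324-41810623 on the plus strand), holds no half-site and 1 match to CAGAC. Of the members 8 had windows, 9 in all, and Trp53inp1 and Zmat3 had none in the table used. A half-site was present in 4 of the 9 windows (Trp53, Mdm2, Ccng1 and the downstream Sesn1 start), against 8.36% of all 32851 windows. A pair of half-sites with at most 13 bases between them was in 0 of the 9 and in 0.0731% of all windows. The Smad-binding letters CAGAC, searched on both strands, were in 2 of the 9 windows, against 49.6% of all. A match is a description of these letters, and sites outside a window were not searched.

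TGF-β1 in fl/fl macrophages moved several p53 targets in opposite directions while Trp53 mRNA did not pass the test. Mdm2, the antagonist of p53, rose, and the death receptor Fas, the growth restraint gene Sesn1 and the RNA-binding zinc finger gene Zmat3 fell. In edgeR's quasi-likelihood test, adjusted by Benjamini-Hochberg over all 13080 genes at 0.05, 1 of the 10 was higher and 3 were lower, which is 40%, where 15.5% of all tested genes passed (7.87% higher and 7.61% lower). The median log2 fold change of the 10 was -0.24, against -0.01 over all tested genes. Of the 10 values 9 were negative, as were 6766 of the 13080 over all tested genes. Those of Trp53, Sesn2 and Phlda3 were within 1 SE of 0, so the signs do not show a common fall. Without KO untreated replicate 1, which enters this comparison only through the shared model and scaling, 1 was higher and 4 were lower, with Ccng1 added, where 18.1% of all tested genes passed (8.91% higher and 9.23% lower). Ranges of CPM did not overlap between treated and untreated libraries for 5 of the 10 (Mdm2, Ccng1, Sesn1, Zmat3 and Fas), and for 23.9% of all tested genes. RNA from whole cultures cannot tell fewer cells of a type from less RNA per cell.

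Trp53 was at 68.9, 68.9, 71.9 and 76.6 CPM in the 4 fl/fl libraries with TGF-β1, against 85.2, 75.3, 72.2 and 71.0 CPM untreated. The groups overlapped and the highest value was an untreated one. In log2 terms TGF-β1 over untreated was -0.08 ± 0.09 (SE; adjusted p = 0.581 in edgeR). In KO macrophages Trp53 was at 75.0, 67.8, 69.5 and 73.4 CPM with TGF-β1 and at 70.4, 80.3, 78.3 and 72.7 CPM untreated, again overlapping, with a log2 fold change of -0.08 ± 0.09 (adjusted p = 0.759 in edgeR), or -0.08 ± 0.09 without replicate 1 (adjusted p = 0.685).

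Mdm2 was at 194, 214.5, 181 and 168 CPM in fl/fl macrophages with TGF-β1, against 147, 142, 133 and 150.5 CPM untreated. Every treated library was above every untreated one. This was a log2 fold change of 0.41 ± 0.11 (adjusted p = 0.0191 in edgeR). It stayed between 0.34 and 0.40 on leaving out fl/fl with TGF-β1 replicate 2, fl/fl untreated replicate 2 or fl/fl untreated replicate 3, but the adjusted p in edgeR was then 0.0666, 0.0573 and 0.0728. In KO macrophages Mdm2 was at 193, 188, 194 and 214 CPM with TGF-β1, and at 192, 132, 155 and 156 CPM in untreated replicates 1 to 4. Replicate 1 lay at the treated level and the other 3 lay below all treated libraries. With all libraries the log2 fold change in KO was 0.31 ± 0.11 (adjusted p = 0.120 in edgeR), and without KO untreated replicate 1 it was 0.45 ± 0.10 (adjusted p = 0.00501).

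Fas, the receptor through which Fas ligand triggers apoptosis, had the largest absolute log2 fold change among the members in both genotypes. It was at 6.13, 5.64, 5.72 and 5.79 CPM in fl/fl macrophages with TGF-β1, against 18.9, 16.02, 11.7 and 14.9 CPM untreated. The 4 treated libraries lay within 0.5 CPM of each other and below all untreated ones. Its log2 fold change was -1.40 ± 0.30 (adjusted p = 0.00415 in edgeR), a fold of 0.379. In KO macrophages Fas was at 6.18, 5.50, 5.36 and 6.85 CPM with TGF-β1, and at 6.16, 27.2, 20.1 and 21.1 CPM in untreated replicates 1 to 4. Untreated replicate 1 lay among the treated libraries, while the other 3 were at least at 20.1 CPM. Fas was the 1 member called in KO with all libraries, at -1.64 ± 0.30 (adjusted p = 0.00929 in edgeR). Without replicate 1 the value was -1.90 ± 0.17 (adjusted p = 1.39e-07), and in a fit of the 8 KO libraries alone, in which no gene at all was called, it was -1.61 (adjusted p = 0.153).

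The sestrins restrain mTORC1, the kinase complex that drives growth, under stress. Sesn1 was at 95.0, 109.7, 128 and 123 CPM in fl/fl macrophages with TGF-β1, against 205, 185, 221 and 219 CPM untreated. All treated libraries lay below all untreated ones. Its log2 fold change was -0.86 ± 0.21 (adjusted p = 0.00820 in edgeR). In KO macrophages Sesn1 was at 138, 111, 118 and 113 CPM with TGF-β1, and at 92.3, 141, 231 and 217 CPM in untreated replicates 1 to 4. Replicate 1 was lower than any treated library, and replicate 2 was just above the highest of them. The log2 fold change in KO was -0.51 ± 0.21 with all libraries (adjusted p = 0.186 in edgeR) and -0.68 ± 0.15 without replicate 1 (adjusted p = 0.00377). The related Sesn2, which also senses leucine, ran from 46.2 to 70.0 CPM in fl/fl with TGF-β1 and from 51.0 to 59.7 CPM in fl/fl untreated libraries, and its log2 fold change was -0.07 ± 0.13 (adjusted p = 0.788 in edgeR). In KO it ran from 45.6 to 57.9 CPM with TGF-β1 and from 43.6 to 57.1 CPM untreated, with a log2 fold change of 0.02 ± 0.13 (adjusted p = 0.975 in edgeR), or 0.11 ± 0.13 without untreated replicate 1 (adjusted p = 0.700). The fl/fl value was -0.21 ± 0.10 without fl/fl with TGF-β1 replicate 4, the highest library (adjusted p = 0.220 in edgeR). Sesn2 overlaps the gene Gm12981, which had 134 counts over all libraries, against 16971 for Sesn2.

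Zmat3 was at 56.4, 59.3, 70.6 and 70.8 CPM in fl/fl macrophages with TGF-β1, against 86.0, 84.7, 103 and 103 CPM untreated. The untreated libraries were all higher than the treated ones, and replicates 3 and 4 were the higher pair in both groups. Its log2 fold change was -0.55 ± 0.13 (adjusted p = 0.00609 in edgeR). In KO macrophages Zmat3 was at 57.9, 57.8, 72.6 and 67.3 CPM with TGF-β1 and at 64.6, 66.9, 89.0 and 80.6 CPM untreated. The KO groups overlapped, and the log2 fold change was -0.24 ± 0.13 (adjusted p = 0.357 in edgeR), or -0.28 ± 0.13 without replicate 1 (adjusted p = 0.189).

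Ccng1, cyclin G1, binds a phosphatase that acts on Mdm2. It was at 169, 180.4, 172 and 91.2 CPM in fl/fl macrophages with TGF-β1, against 240, 213, 221 and 226 CPM untreated. All treated libraries were below all untreated ones, and replicate 4 lay far under the other treated 3. The log2 fold change was -0.55 ± 0.20 and did not pass (adjusted p = 0.0721 in edgeR). It passed with the replicate number as a block within each genotype, at -0.60 (adjusted p = 0.0155), and without KO untreated replicate 1, at -0.56 ± 0.19 (adjusted p = 0.0487). DESeq2 and limma on log2(FPKM + 1) also called it, at -0.55 (adjusted p = 0.0487) and -0.64 (adjusted p = 0.0291). Without fl/fl with TGF-β1 replicate 4 the value was -0.37 (adjusted p = 0.171 in edgeR). In KO macrophages Ccng1 was at 116, 142, 198 and 185 CPM with TGF-β1 and at 144, 164, 212 and 219 CPM untreated. These ranges overlapped, and the log2 fold change was -0.21 ± 0.20 (adjusted p = 0.711 in edgeR), or -0.28 ± 0.20 without untreated replicate 1 (adjusted p = 0.461).

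Trp53inp1, a nuclear stress protein that promotes p53 phosphorylation, showed the same low library. It was at 155, 163, 161 and 84.1 CPM in fl/fl macrophages with TGF-β1, against 168, 156, 173 and 167 CPM untreated. Apart from replicate 4 the groups lay close together and overlapped. Its log2 fold change was -0.24 ± 0.18 (adjusted p = 0.423 in edgeR), and -0.06 ± 0.13 without that library (adjusted p = 0.869). In KO macrophages it ran from 135 to 197 CPM with TGF-β1 and from 132 to 183 CPM untreated, with a log2 fold change of 0.01 ± 0.18 (adjusted p = 0.989 in edgeR), or 0.00 ± 0.19 without untreated replicate 1 (adjusted p = 0.995).

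Phlda3, a small lipid-binding protein that inhibits Akt, was at 8.31, 7.68, 13.3 and 22.7 CPM in fl/fl macrophages with TGF-β1, against 10.5, 10.7, 17.2 and 13.7 CPM untreated. The same replicate 4 was here the highest of the 8 libraries. TGF-β1 over untreated was 0.00 ± 0.29 on the log2 scale (adjusted p = 0.995 in edgeR), and -0.42 ± 0.25 without that library (adjusted p = 0.338). In KO macrophages Phlda3 was at 8.71, 8.05, 14.1 and 9.67 CPM with TGF-β1, and at 9.55, 14.8, 15.5 and 15.3 CPM in untreated replicates 1 to 4. Without replicate 1 the KO groups did not overlap, but the log2 fold change of -0.56 ± 0.30 did not pass (adjusted p = 0.277 in edgeR). With all libraries it was -0.44 ± 0.30 (adjusted p = 0.515).

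Btg2, an antiproliferative partner of the CCR4-NOT deadenylase, was at 18.8, 23.9, 24.0 and 25.8 CPM in fl/fl macrophages with TGF-β1, against 25.2, 27.8, 26.8 and 29.0 CPM untreated. The groups overlapped by 1 library. TGF-β1 over untreated was -0.23 ± 0.14 on the log2 scale (adjusted p = 0.293 in edgeR). In KO macrophages Btg2 was at 35.3, 25.2, 23.8 and 22.8 CPM with TGF-β1 and at 31.7, 32.4, 37.7 and 36.2 CPM untreated. Replicate 1 was the highest treated KO library and the other 3 lay below all untreated ones. The log2 fold change in KO was -0.37 ± 0.14 with all libraries (adjusted p = 0.139 in edgeR) and -0.37 ± 0.15 without untreated replicate 1 (adjusted p = 0.114). It passed without KO with TGF-β1 replicate 1, at -0.51 (adjusted p = 0.0400).

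In KO macrophages as a whole, 0 members were higher and 1 was lower with TGF-β1, where 5.17% of all tested genes passed (2.19% higher and 2.97% lower). Without KO untreated replicate 1, 1 was higher (Mdm2) and 2 were lower (Sesn1 and Fas), where 15.2% of all tested genes passed (8.33% higher and 6.88% lower). The median log2 fold change of the 10 was -0.22 with all libraries and -0.28 without that one, against -0.03 and -0.01 over all tested genes. With all libraries 0 of the 10 had ranges that did not overlap (6.04% of all tested genes), and without it 4 did (Mdm2, Sesn1, Phlda3 and Fas; 24.2% of all tested genes). KO untreated replicate 1 lay within the range of the KO libraries with TGF-β1 for 9 of the 10 members and outside the range of the other 3 KO untreated libraries for 9. Shares over all tested genes were not computed for these counts, so they cannot say whether the members differ from other genes in this. With so few libraries, 1 of them often lies outside the range of the other 3 by chance. The range of the treated and that of the other 3 untreated libraries overlapped for all members but Mdm2, Sesn1, Phlda3 and Fas. For Mdm2, Phlda3 and Fas replicate 1 lay within the treated range, and for Sesn1 below it.

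**Figure D2:**
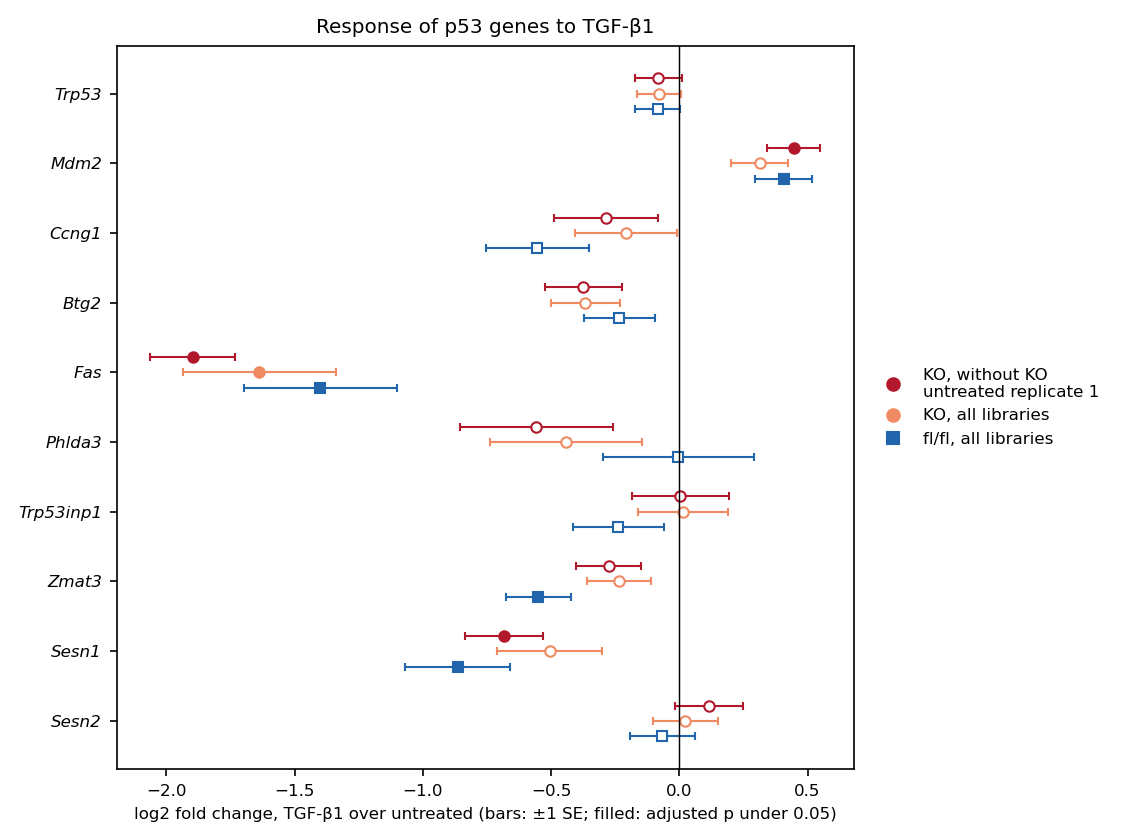
Log2 fold change of the 10 p53 genes with TGF-β1 over untreated, with bars of 1 SE, in KO macrophages (without and with KO untreated replicate 1) and in fl/fl macrophages; filled symbols have an adjusted p under 0.05. Fas lies farthest left, at -1.90 and -1.64 in KO without and with that library and -1.40 in fl/fl, and Mdm2 alone is filled on the right of 0.

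None of the 10 genes passed the test between KO and fl/fl macrophages in either treatment. With TGF-β1, 0 of 10 passed (0.0382% of all tested genes did), and untreated, 0 of 10 passed (0.0459% did). Without KO untreated replicate 1 these counts were again 0, where 0.0612% and 0.0994% of all tested genes passed. DESeq2 and limma also called 0 members in both comparisons. At an unadjusted p under 0.05 edgeR gave 0 members with TGF-β1 and 2 untreated, Zmat3 and Btg2, and without replicate 1 it gave 0 and 3, with Fas added. Over all 13080 tested genes these counts were 734 and 1421, and 874 and 1566 without replicate 1. Ranges of CPM with TGF-β1 overlapped for all 10 members, where 4.61% of all tested genes did not overlap.

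Untreated, Btg2 was the 1 member whose ranges did not overlap, at 31.7 to 37.7 CPM in KO and 25.2 to 29.0 CPM in fl/fl macrophages, where 8.04% of all tested genes did not overlap. Its log2 difference was 0.34 ± 0.14 (adjusted p = 0.416 in edgeR), or 0.36 ± 0.15 without KO untreated replicate 1 (adjusted p = 0.383). The untreated log2 difference of Zmat3 was -0.32 ± 0.12, or -0.28 ± 0.13 without that library (adjusted p = 0.414 in edgeR for both), with 64.6 to 89.0 CPM in KO and 84.7 to 103 CPM in fl/fl macrophages. Without KO untreated replicate 1, Fas was at 20.1 to 27.2 CPM in KO and 11.7 to 18.9 CPM in fl/fl untreated macrophages and became the second member with no overlap (14.2% of all tested genes). Its log2 difference was then 0.55 ± 0.16 (adjusted p = 0.302 in edgeR), against 0.28 ± 0.29 with all libraries (adjusted p = 0.743).

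**Figure D3:**
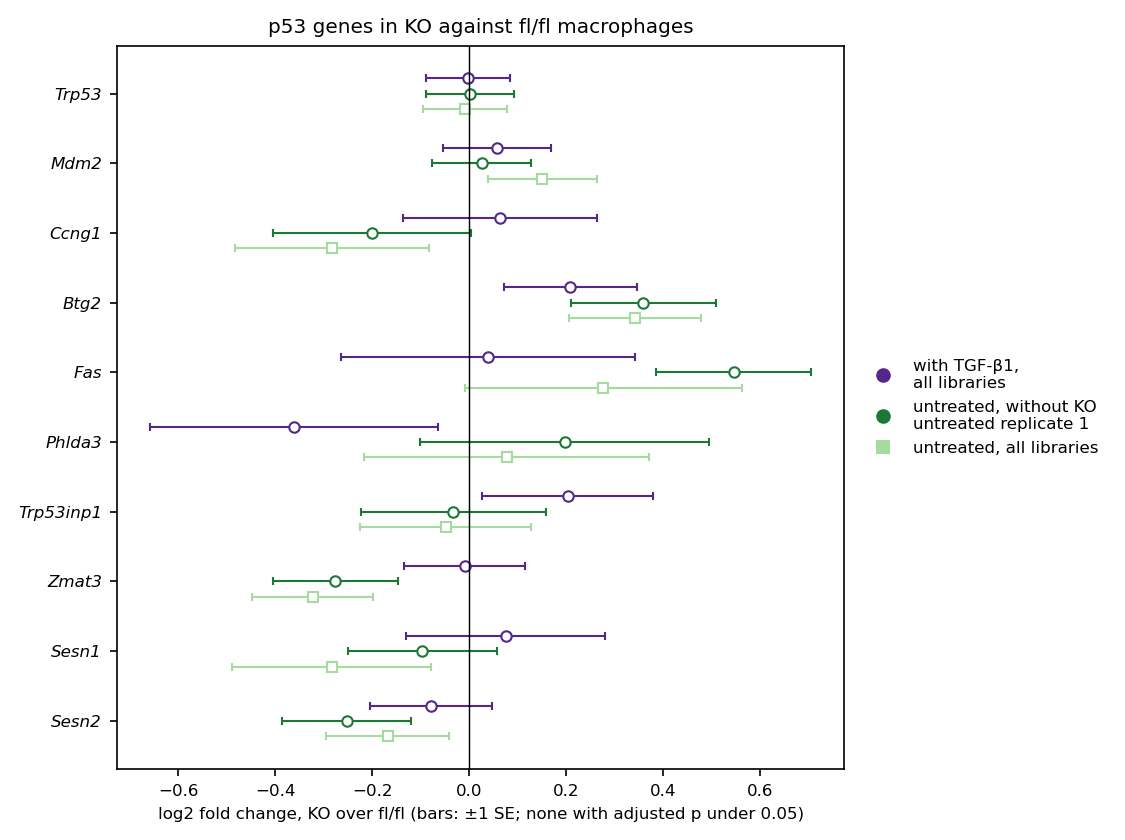
Log2 fold change of the 10 p53 genes in KO over fl/fl macrophages, with bars of 1 SE, with TGF-β1 and untreated; the untreated comparison is drawn without and with KO untreated replicate 1. None has an adjusted p under 0.05; untreated Btg2 lies at 0.34 and Fas moves to 0.55 without that library, against 0.28 with it.

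The difference between the TGF-β1 responses of KO and fl/fl macrophages was tested directly and passed for 0 of the 10 members, as for 0% of all tested genes. At an unadjusted p under 0.05 edgeR gave 0 members with all libraries and 1, Fas, without KO untreated replicate 1, and DESeq2 and limma called 0. Over all 13080 tested genes the unadjusted counts were 275 with all libraries and 256 without KO untreated replicate 1. The Fas difference was -0.24 ± 0.42 on the log2 scale with all libraries (adjusted p = 0.993 in edgeR), and -0.50 ± 0.23 without that library (adjusted p = 0.982). For Mdm2 it was -0.09 ± 0.16 and 0.04 ± 0.14, and for Sesn1 0.36 ± 0.29 and 0.18 ± 0.21. The 2 TGF-β1 comparisons share no library, but the 4 pairwise comparisons draw on the same 4 groups.

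Other p53 targets, 30 genes listed from background knowledge of which 28 were tested, moved both ways in fl/fl macrophages with TGF-β1. In edgeR 5 were higher and 6 lower, which is 39.3% of those tested, where 15.5% of all tested genes passed (7.87% higher and 7.61% lower). Leaving out fl/fl with TGF-β1 replicate 1, replicate 2 or fl/fl untreated replicate 4 left 7 called each time. Their median log2 fold change was -0.15, against -0.01 over all tested genes. The polo-like kinase gene Plk3 was at 20.1, 25.8, 27.2 and 31.8 CPM with TGF-β1, against 2.75, 1.98, 2.21 and 3.45 CPM untreated, a log2 fold change of 3.33 ± 0.78 (adjusted p = 0.00954 in edgeR). Its relative Plk2 went the other way, with 9.16, 13.3, 9.86 and 8.91 CPM with TGF-β1 against 32.5, 41.1, 38.9 and 66.8 CPM untreated and a log2 fold change of -2.12 ± 0.39 (adjusted p = 0.00200 in edgeR). Neither gene's groups overlapped. Pmaip1, which encodes the pro-apoptotic protein Noxa, was at 2.91, 3.29, 4.09 and 3.34 CPM with TGF-β1, against 16.9, 15.1, 15.8 and 15.9 CPM untreated, a log2 fold change of -2.22 ± 0.36 (adjusted p = 0.00104 in edgeR).

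The other risers were Gadd45a, a growth arrest and DNA damage gene, at 1.24 ± 0.32, the metabolic phosphatase Tigar at 0.81 ± 0.16, the DNA damage sensor Xpc at 0.61 ± 0.13 and the tetraspanin Cd82 at 0.32 ± 0.10 on the log2 scale. Besides Pmaip1 and Plk2, the stress cytokine Gdf15 (-0.83 ± 0.23), the repair endonuclease gene Ercc5 (-0.56 ± 0.15) and the nuclease gene Aen (-0.55 ± 0.16) fell. The last of those that fell was Cdkn1a, the cell cycle inhibitor p21, at -0.56 ± 0.17 (adjusted p = 0.0348 in edgeR), named here after its values were seen. Of the 30 listed targets 24 had start-site windows, 36 in all. Among these 24, Cdkn1a was the 1 target with a window that held a pair of half-sites within 13 bases, where 0.0731% of all windows held one. The pair begins 73 bases before the start, at chr17:29090906-29090937 on the plus strand of GRCm38.p6, and is shown with the half-sites in capitals.
Cdkn1a: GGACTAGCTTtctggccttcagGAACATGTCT
A single half-site was in 11 of 36 windows of these targets, 30.6%, against 8.36% of all windows. CAGAC was in 21 of the 36, 58.3%, against 49.6% of all windows. Cdkn1a was at 199.9, 183, 179.9 and 217 CPM in fl/fl with TGF-β1 against 283, 284, 275 and 310.2 CPM in fl/fl untreated libraries, with no overlap.

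In KO macrophages 0 of the 28 were higher and 3 lower with all libraries (Pmaip1 at -2.12 ± 0.36, Plk2 at -1.52 ± 0.38 and Gdf15 at -0.82 ± 0.23), which is 10.7%, where 5.17% of all tested genes passed. When KO untreated replicate 1 was left out, 4 were higher and 5 lower, which is 32.1%, where 15.2% of all tested genes passed. Plk3 was then at 3.52 ± 0.34, Gadd45a at 1.34 ± 0.23, Tigar at 0.62 ± 0.16 and Xpc at 0.45 ± 0.11, and Pmaip1 at -2.42 ± 0.15, Plk2 at -1.80 ± 0.25, Gdf15 at -0.97 ± 0.20, Cdkn1a at -0.65 ± 0.11 and Aen at -0.48 ± 0.15. With all libraries Plk3 was at 1.49 ± 0.70, Gadd45a at 0.76 ± 0.31, Tigar at 0.45 ± 0.16 and Xpc at 0.28 ± 0.13. Cdkn1a was at -0.49 ± 0.17 and Aen at -0.39 ± 0.16 in that fit, where none of these passed (adjusted p of 0.117 to 0.285 in edgeR). In KO untreated replicate 1 Plk3 was at 30.7 CPM, against 19.8 to 39.2 CPM in KO with TGF-β1 and 4.01, 2.04 and 1.10 CPM in KO untreated replicates 2 to 4. Leaving out any other KO library left 1 of the 28 called. The median log2 fold change of the 28 in KO was -0.20 with all libraries and -0.26 without it, against -0.03 and -0.01 over all tested genes. No listed target passed in KO over fl/fl with or without TGF-β1 in edgeR, DESeq2 or limma, and 2 and 5 had an unadjusted p under 0.05 in edgeR. Over all 13080 tested genes 734 and 1421 did.

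**Figure D4:**
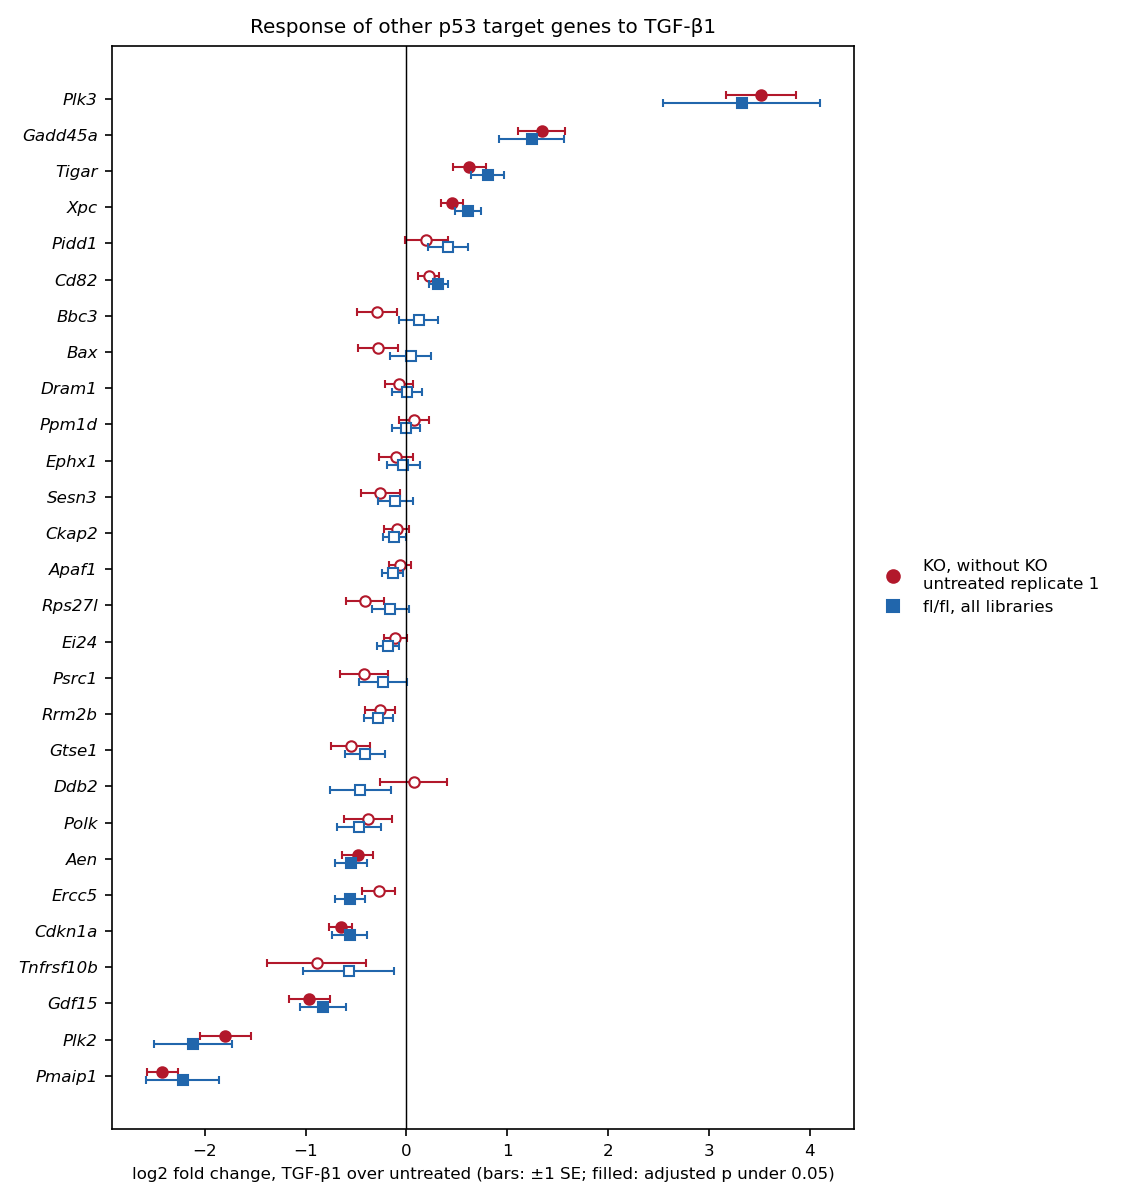
Log2 fold change with TGF-β1 over untreated of the tested genes listed as other p53 targets, with bars of 1 SE, in KO (without KO untreated replicate 1) and fl/fl macrophages; filled symbols have an adjusted p under 0.05. Plk3 stands at the high end, at 3.52 in KO and 3.33 in fl/fl, and Pmaip1 at the low end, at -2.42 in KO and -2.22 in fl/fl.

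Of 28 listed regulators and cofactors of p53, 26 were tested and 3 passed in fl/fl macrophages with TGF-β1 in edgeR, 1 higher and 2 lower. That is 11.5%, where 15.5% of all tested genes passed. Chek2, a kinase that phosphorylates p53 after DNA damage, was at 40.4, 36.4, 43.3 and 34.1 CPM with TGF-β1, against 22.9, 21.5, 24.3 and 24.8 CPM untreated, a log2 fold change of 0.72 ± 0.14 (adjusted p = 0.00221 in edgeR). Rchy1, an alternative ubiquitin ligase of p53, was at 21.8, 21.6, 24.5 and 17.6 CPM with TGF-β1, against 33.4, 28.8, 33.5 and 32.7 CPM untreated, a log2 fold change of -0.59 ± 0.14 (adjusted p = 0.00822 in edgeR). Neither gene's groups overlapped. Ppp1r13b, the p53 cofactor ASPP1, fell by 0.42 ± 0.13 on the log2 scale (adjusted p = 0.0328 in edgeR). In KO macrophages Rchy1 was the 1 that passed with all libraries, at -0.50 ± 0.14 (adjusted p = 0.0444 in edgeR), and leaving out any 1 library other than KO untreated replicate 1 or fl/fl with TGF-β1 replicate 4 left 0 regulators called. Once KO untreated replicate 1 was left out, Rchy1 was at -0.60 ± 0.12, Chek2 at 0.65 ± 0.12 and Trp53bp1, named after its values were seen, at 0.31 ± 0.10, and all 3 passed. The shares in KO were 3.85% with all libraries and 11.5% without that one, against 5.17% and 15.2% of all tested genes. The median log2 fold change of the 26 was -0.02 in fl/fl, and in KO it was 0.00 with all libraries and 0.07 without that one. No regulator passed in KO over fl/fl in edgeR, DESeq2 or limma, and 3 had an unadjusted p under 0.05 in edgeR in each treatment. Over all 13080 tested genes 734 did with TGF-β1 and 1421 did untreated.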

How the data were processed

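Polyadenylated RNA of 16 macrophage libraries had been read as 150 bp pairs, per the labels' protocols. The deposited table holds raw read counts for 35275 Ensembl genes, and a second deposited table holds FPKM values. The FPKM values equalled the count divided by gene length and library total in 100% of positive values, within 0.1%. TopHat2 2.0.9, HTSeq 0.6.1 and Cufflinks 2.1.1 are named, with mm10 and GRCm38.p6, per the submitters' processing notes. Strand and counting options are not given in the sources used here. The labels list 16 libraries while their extraction protocol speaks of fewer. Nothing in them says that libraries of a group came from separate animals, so p-values measure the spread between these samples, which may be technical.

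Counts were scaled by TMM and filtered by filterByExpr on the 4 groups in edgeR 4.0.16 (R 4.3.3). A robust quasi-likelihood model with a mean per group was fitted to all 16 libraries, and p was adjusted by Benjamini-Hochberg over the 13080 genes tested. SE is the log2 fold change divided by the square root of F. CPM uses TMM-scaled totals. The 5 comparisons were TGF-β1 over untreated in each genotype, KO over fl/fl with and without TGF-β1, and the difference between the responses as an interaction. The script was tested on simulated data. Alternatives were scaling by the size-factor method of DESeq2 (RLE) as run by edgeR, and the Wald test of DESeq2 1.42.0. Others were no filter on low counts, limma 3.58.1 on log2(FPKM + 1) and the groups compared alone. Each library was also left out in turn, and the replicate number was used as a block. Reads carry no molecular identifiers.

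Same-numbered fl/fl libraries deviated together in all 4 pairs (correlations of 0.123 to 0.181 between treated and untreated deviations from the group means). These correlations are low, and treated replicate 2 correlated most with untreated replicate 1. Pairing by number was therefore taken as possible in fl/fl but not as established, and the blocked value is given where it changed a call. The KO pairs had correlations of 0.0754, 0.0816, 0.187 and 0.239 for replicates 1 to 4. Only 2 of the 4 KO pairs exceeded 0.1, those of replicates 3 and 4, in which the treated library correlated most with its own number. Pairing in KO is likewise not established. KO untreated replicate 1 enters pair 1 and its group mean, so these values cannot show that pairing differs between the genotypes. The fit reported has no block, and the block within each genotype was fitted in KO too.

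The members, lists and tests were chosen with earlier results of these data known. Of the other targets and regulators, the genes named are up to 5 rising and 5 falling with the lowest p in fl/fl among those that passed. Tigar was matched by its Ensembl identifier, since the table has an older symbol. A gene taken by the rule for likeness is left out of this account.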

Additional observations from a re-analysis of the deposited data

Results flagged for a closer look

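The members and the genes named by rule were each examined in each of the 4 groups, which made 92 sets of 4 libraries. In 10 of the 92, 1 library lay farther from the others than Dixon's 95% critical value allows. Chance alone gives about 1 in 20 for independent sets, but these sets reuse the same 16 libraries. The genes outside the members were also named for a low p with TGF-β1 in fl/fl macrophages. An untreated library at the treated level stands out in such genes, so the count is not a test. Of the 10, 5 were KO untreated replicate 1 and 2 were fl/fl with TGF-β1 replicate 4.

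In KO untreated replicate 1, Phlda3 was at 9.55 CPM, against 14.8 to 15.5 CPM in the other 3 libraries of its group. Pmaip1 was at 3.77 CPM there, against 19.4 to 22.4 CPM. Plk3 was at 30.7 CPM, against 1.10 to 4.01 CPM, Gadd45a at 14.8 CPM, against 4.57 to 5.54 CPM, and Xpc at 68.3 CPM, against 47.2 to 48.9 CPM. The first 4 of these lay within the range of the KO libraries with TGF-β1, and Xpc lay above it.

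In fl/fl with TGF-β1 replicate 4, Ccng1 was at 91.2 CPM, against 169 to 180.4 CPM in the other 3, and Trp53inp1 was at 84.1 CPM, against 155 to 163 CPM. Phlda3, at 22.7 CPM, and Sesn2, at 70.0 CPM, were higher in that library than in any other of the 16. It was also the 1 library with the low mitochondrial share, whose part in these values was not tested.

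Among single values, Xpc was at 55.6 CPM in KO with TGF-β1 replicate 1, against 66.7 to 67.2 CPM in the other 3. Ercc5 was at 18.7 CPM in KO with TGF-β1 replicate 3, against 11.8 to 12.7 CPM. Rchy1 was at 28.8 CPM in fl/fl untreated replicate 2, against 32.7 to 33.5 CPM.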

How the results depend on the processing

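The members called in fl/fl with TGF-β1 numbered 4 in the fit reported, 3 to 5 on leaving out 1 library, 4 with the replicate block over all 16 libraries and 5 with the block within each genotype, which added Ccng1. In KO the count of 1 was 1 to 3 on leaving out 1 library, 0 in the KO groups alone, 3 in those groups or with the replicate block when KO untreated replicate 1 was left out, and 4 without it and fl/fl with TGF-β1 replicate 4. Other targets called in fl/fl numbered 11, and 7 to 11 on leaving out 1 library. In KO the count of 3 was 1 to 9 on leaving out 1 library, 1 with no filter on low counts and 0 in the KO groups alone. Without KO untreated replicate 1 it was 9 in the KO groups alone and 8 with the replicate block, and it was 11 without both libraries that stood apart. Regulators called in KO numbered 1, and 0 to 3 on leaving out 1 library, 0 with no filter, with limma and in the KO groups alone, and 2 with DESeq2. They were 2 in the KO groups alone and with the replicate block, both without KO untreated replicate 1, and 4 without both libraries. In KO the block changed no call of a member. Over all tested genes the KO count of 676 was 446 with no filter, 1093 with DESeq2 and 93 to 1989 on leaving out 1 library. KO over fl/fl called 6 genes untreated and 5 with TGF-β1, and DESeq2 called 61 and 24. The signs of the called members did not reverse under any alternative run. The causes of these changes were not tested beyond the libraries left out. The 4 libraries per group and the spread of KO untreated libraries limit what the KO comparisons can show.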

Other observations

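The genes outside the lists whose levels over the 16 libraries were most like those of Fas were H2-Q4, Ikbke and Sema4a, with root-mean-square differences of standardised log2 CPM of 0.185, 0.206 and 0.221, where the median over all tested genes was 1.32. H2-Q4 belongs to a family of near-identical class I genes between which reads may be split, so its value is uncertain. For Mdm2 the gene most like it was Galnt7, at 0.283 (median 1.40). For Trp53 they were Araf, Stk25 and Tube1, at 0.559, 0.571 and 0.585 (median 1.37). The 16 libraries of these measures include those that stood apart.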
